A study of Mus musculus with 14 samples.

Results

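Fibronectin (Fn1), the thrombospondins Thbs1 and Thbs2, periostin (Postn), Ccdc80 and Timp3 are secreted proteins that build, decorate or protect the extracellular matrix, and they are described here in mouse embryonic fibroblasts across 7 groups. The members were taken by gene symbol, and each of the 6 symbols had exactly 1 transcript among the 1399 transcripts that the count tables list. The study asked how cystine and cysteine supply change gene expression, with starvation on one side and lysosomal cystine handling on the other. Ctns encodes cystinosin, which exports cystine from lysosomes, and cysteamine is a drug that depletes lysosomal cystine.

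All 14 libraries came from wild-type MEF cells, with 2 libraries per group. The first experiment held 6 libraries: untreated cells (NT), cells starved of cysteine and cells starved of all amino acids (full amino acid starvation). The second held 8 libraries: untreated cells (NT2), cysteamine treatment, cells transfected with a short hairpin against Ctns (sh-CTNS, called CTNS knockdown here), and cells given sh-CTNS together with a CTNS plasmid (called rescue here). The labels do not say which untreated group belongs to which treatment. The assignment follows the group names, and the 6 libraries of the first experiment share a header prefix that the other 8 lack. Both controls are labelled as untreated, so a transfection and its hairpin or plasmid cannot be told apart in a comparison with NT2. No group is labelled as sh-CTNS with an empty plasmid, so in rescue against knockdown plasmid delivery and CTNS cannot be told apart. The labels give no dose or duration, and they do not say that the 2 libraries of a group are separate cultures. The p-values therefore cover the spread from library to library alone, and that spread may be technical. No transcript of Ctns is among the 1399, so the knockdown label was not checked on its own target.

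The tables hold whole-number counts of at least 1, so a transcript with a count of 0 in any library lies outside them. Summed counts ran from 25697 to 51224 per library in the first experiment and from 64530 to 165747 in the second. Of 15 fibroblast markers, 7 were listed, and their summed level ran from 6128 (CTNS knockdown) to 21729 CPM (cysteine starvation) over all libraries. Epithelial, skeletal muscle and pancreatic markers were each represented by 1 transcript (Cdh1, Ttn and Ctrb1), and no marker of endothelial cells, leukocytes or neurons was listed. The libraries also differed in makeup. A set of 341 transcripts, called tracking transcripts here, was defined by counts that are high in NT when set against NT2. The set includes by rule the 3 transcripts with the highest summed counts. A high share in NT and a low one in NT2 follow from this definition. The share of the set in all counts was 37.6% to 86.8% in the first experiment, lowest under cysteine starvation. In the second experiment its share was 9.38% to 9.59% (NT2), 16.3% to 17.4% (cysteamine), 32.0% to 32.7% (knockdown) and 39.4% to 41.8% (rescue). Postn belongs to this set, on 4 counts in NT and 22 in NT2, and the other 5 members do not. In bulk RNA, fewer cells of a type and less RNA per cell cannot be told apart.

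Fibroblasts secrete fibronectin as a soluble dimer and assemble it into fibrils by pulling on it through integrins. These fibrils then serve as a scaffold for collagens and for matricellular proteins, which are deposited in the matrix but act on cells more than they bear load. Thrombospondins bind integrins, CD36, CD47 and LRP1 and slow vessel growth, and Thbs1 can also activate latent TGF-beta. Periostin binds fibronectin and collagen and rises in wounds and fibrosis. Ccdc80 is a secreted matrix-associated protein of stromal cells, and Timp3 is the metalloproteinase inhibitor that stays bound to the matrix.

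The counted transcripts were Fn1-201 (ENSMUST00000055226, chromosome 1, 8315 bases), Thbs1-201 (ENSMUST00000039559, chromosome 2, 5848 bases), Thbs2-201 (ENSMUST00000170872, chromosome 17, 5895 bases), Postn-203 (ENSMUST00000107985, chromosome 3, 3205 bases), Ccdc80-202 (ENSMUST00000099498, chromosome 16, 4083 bases) and Timp3-201 (ENSMUST00000020234, chromosome 10, 4722 bases). All 6 are protein coding. Most 30-base stretches of Fn1-201 (96.4%), Postn-203 (99.9%) and Ccdc80-202 (94.7%) also occur in other transcripts of the same gene, so their counts may reflect how the counting split isoforms. The 2 thrombospondins share no 30-base stretch, so their reads do not mix at that length. Timp3 lies within an intron of Syn3 in the opposite direction, and 36.7% of its 30-base stretches match opposite-strand transcripts of other genes, most of them Syn3. No Syn3 transcript is listed, and since the strand setting of the counting is not given in the sources used here, reads of that stretch from either strand cannot be told apart.

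RefSeq promoter windows (GRCm38.p6) were found for Thbs2, Postn and Timp3. They are shown because no such window was found for the other members. Thbs2 and Timp3 were called lower than NT2 in CTNS knockdown and in rescue. Postn, which has few counts, was below NT2 in knockdown without a call and was called above it in rescue. Each line gives the 250 bases before the RefSeq transcription start, written 5′ to 3′ on the strand of the gene, and capitals mark motif matches. That start lies 27 (Thbs2), 2 (Postn) and 40 (Timp3) bases from the GENCODE start of the counted transcript. Postn had 2 windows, and the one nearest to that GENCODE start is shown.
Thbs2 (chr17:14694263-14694512, minus strand): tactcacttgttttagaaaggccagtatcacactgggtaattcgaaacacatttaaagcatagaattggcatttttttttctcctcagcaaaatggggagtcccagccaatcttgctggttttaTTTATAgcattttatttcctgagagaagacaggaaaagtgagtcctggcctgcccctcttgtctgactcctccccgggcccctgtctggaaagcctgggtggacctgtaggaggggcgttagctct
Postn (chr3:54360857-54361106, plus strand): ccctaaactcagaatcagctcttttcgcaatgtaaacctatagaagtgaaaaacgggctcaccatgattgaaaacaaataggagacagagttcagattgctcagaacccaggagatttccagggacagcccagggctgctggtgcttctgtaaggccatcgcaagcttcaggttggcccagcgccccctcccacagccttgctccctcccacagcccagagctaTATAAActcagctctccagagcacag
Timp3 (chr10:86300162-86300411, plus strand): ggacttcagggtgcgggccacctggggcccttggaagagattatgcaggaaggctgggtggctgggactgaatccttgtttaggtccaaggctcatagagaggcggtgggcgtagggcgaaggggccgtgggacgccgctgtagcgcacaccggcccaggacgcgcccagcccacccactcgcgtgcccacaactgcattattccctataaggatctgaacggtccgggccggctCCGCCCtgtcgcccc
Both strands were searched for 4 motifs that do not overlap in these windows. TATAAA is a core promoter element. GGGCGG binds Sp1. TGANTCA is the AP-1 site, and GGAATG is the site of the TEAD factors that YAP works through. Postn holds TATAAA on its own strand with its first base at -26 from the start, Thbs2 holds it on the opposite strand at -126, and Timp3 holds GGGCGG on the opposite strand at -15. Of 32851 promoter windows of this length, 12.4% hold TATAAA, 32.7% GGGCGG, 6.75% TGANTCA and 12.6% GGAATG. Neither TGANTCA nor GGAATG occurs in the 3 windows, which says only that these letters are not there.

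Levels below are CPM, counts relative to an effective library total that edgeR's TMM method (trimmed mean of M values) sets; replicate 1 is given before replicate 2, and means carry the SD of 2 libraries. Compared per kilobase of transcript, fibronectin was the highest of the 6 in every group, with 1764 ± 40.1 CPM per kilobase in NT2 and 570 ± 5.83 in CTNS knockdown (SD, n = 2). In NT2 it was followed on that scale by Timp3 at 460 ± 9.24, Thbs1 at 138 ± 2.04, Thbs2 at 112 ± 19.6, Ccdc80 at 70.3 ± 6.19 and Postn at 14.8 ± 1.74 CPM per kilobase. Fn1 had the highest count of all 1399 transcripts in both NT2 libraries. It ranked between 4 and 8 in the other libraries of the second experiment and in cysteine starvation, and between 13 and 37 in NT and full amino acid starvation.

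**Figure D1:**
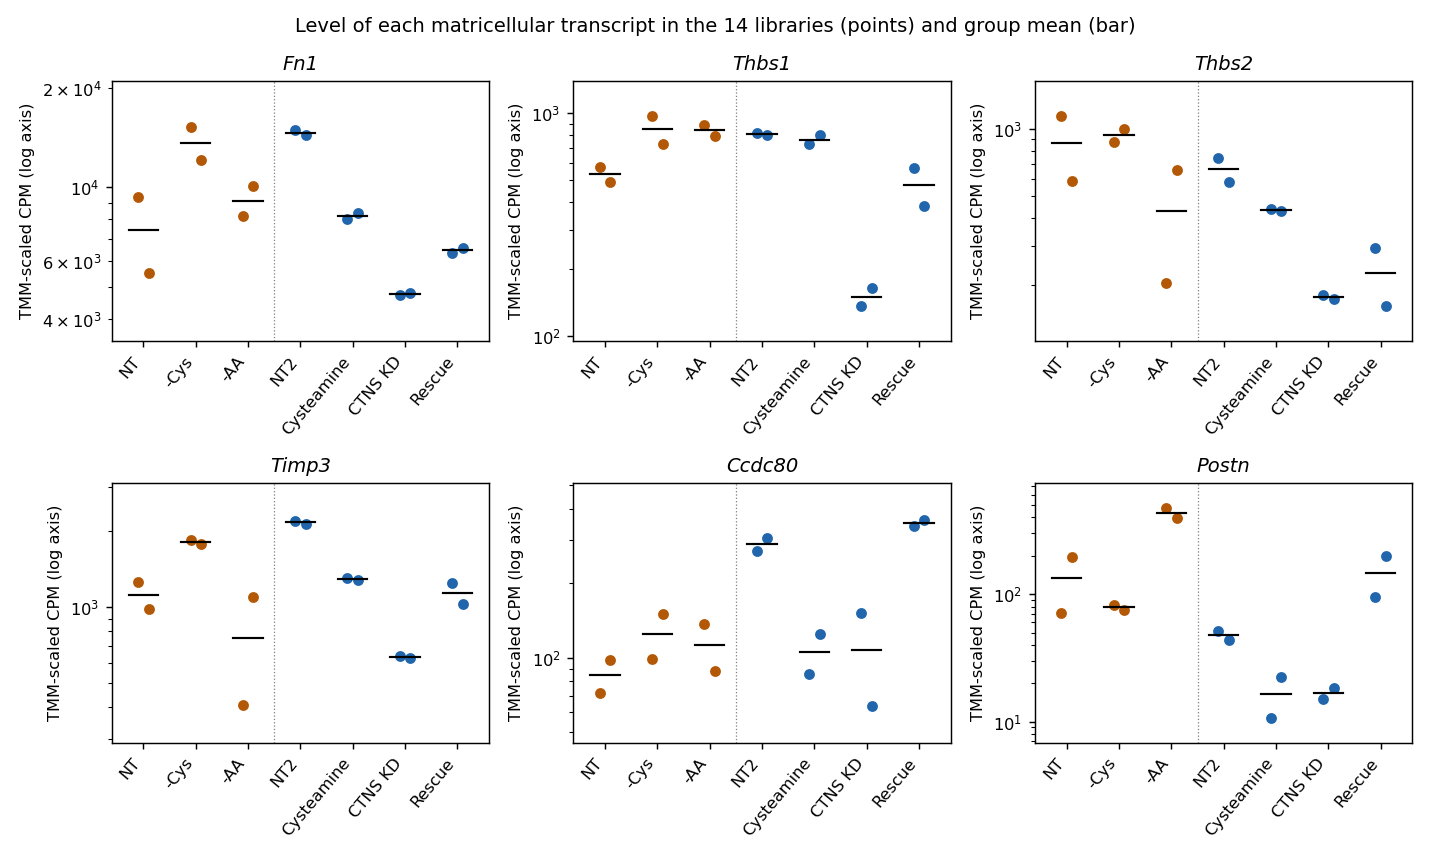
TMM-scaled CPM (log axis, a separate scale for each panel) of Fn1, Thbs1, Thbs2, Timp3, Ccdc80 and Postn. Each point is 1 library and each bar the mean of 2, with the first experiment in orange to the left of the dotted line and the second in blue to the right (-Cys, cysteine starvation; -AA, full amino acid starvation; CTNS KD, CTNS knockdown). The CTNS knockdown libraries of Fn1, Thbs1, Thbs2 and Timp3 sit below both NT2 libraries, and the full amino acid starvation libraries of Postn, at 396 and 476 CPM, sit above all others of that gene.

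Fibronectin stood at 14902 and 14430 CPM in NT2, 8038 and 8393 with cysteamine, 4708 and 4776 in knockdown, and 6312 and 6565 in rescue. The 4 groups of the second experiment did not overlap, and knockdown was the lowest of all 7 groups. In the first experiment it stood at 9348 and 5486 CPM (NT), 15250 and 12091 (cysteine starvation), and 8167 and 10068 (full amino acid starvation). Both cysteine-starved libraries were above the other 4, while NT and full amino acid starvation overlapped. Ordered by mean, Fn1 was highest in NT2 (14666 ± 334), then cysteine starvation (13670.5 ± 2233), full amino acid starvation (9117 ± 1344), cysteamine (8215 ± 251), NT (7417 ± 2730.4), rescue (6439 ± 178) and knockdown (4742 ± 48.5). In that order, the libraries of neighbouring groups overlapped except for cysteine starvation next to full amino acid starvation and rescue next to knockdown.

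Thbs1 stood at 816 and 799 CPM in NT2, 726 and 796 with cysteamine, 136 and 164 in knockdown, and 569 and 384 in rescue. Knockdown was thus far below the rest, and rescue lay between it and the 2 other groups. NT held 573 and 489.8 CPM, cysteine starvation 974 and 726, and full amino acid starvation 885 and 791. Both starvations were above NT and overlapped each other. Over the 7 groups the highest mean was in cysteine starvation (850 ± 175), followed by full amino acid starvation (838 ± 66.0), NT2 (807 ± 11.9), cysteamine (761 ± 49.7), NT (531 ± 58.8), rescue (476 ± 131) and knockdown (149.99 ± 20.4). Of these neighbours, cysteine starvation overlapped full amino acid starvation, that group overlapped NT2, and NT overlapped rescue.

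Thbs2 was at 744 and 581 CPM in NT2, 438 and 431 with cysteamine, 181 and 174 in knockdown, and 294 and 161 in rescue. Unlike Thbs1, its rescue libraries straddled the knockdown ones. The first experiment gave 1146 and 588 CPM for NT, 875 and 1001 for cysteine starvation, and 204 and 659 for full amino acid starvation. The 2 libraries of full amino acid starvation rest on 3 and 15 counts. By mean the order was cysteine starvation (938 ± 89.5), NT (867 ± 395), NT2 (663 ± 116), cysteamine (435 ± 4.39), full amino acid starvation (432 ± 322), rescue (227 ± 93.9) and knockdown (177 ± 5.13), and only NT2 and cysteamine were separate neighbours.

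Timp3 was at 2201 and 2140 CPM in NT2, 1308 and 1277 with cysteamine, 640.3 and 630.2 in knockdown, and 1251 and 1028 in rescue. The 4 groups did not overlap, in the same order as the means of Thbs1. In the first experiment it was at 1254 and 979.7 CPM (NT), 1848 and 1777 (cysteine starvation), and 408 and 1099 (full amino acid starvation). Cysteine starvation was above the other 4 libraries, and the 2 amino acid starved libraries, with 6 and 25 counts, differed most between themselves. The means fell from NT2 (2170.4 ± 43.6) through cysteine starvation (1813 ± 50.3), cysteamine (1292 ± 22.0), rescue (1139.6 ± 158), NT (1117 ± 194) and full amino acid starvation (754 ± 488) to knockdown (635 ± 7.15). The neighbours that overlapped were rescue with NT, NT with full amino acid starvation, and that group with knockdown.

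Ccdc80 was at 269 and 305 CPM in NT2, 85.4 and 125 with cysteamine, 151 and 63.9 in knockdown, and 341 and 359 in rescue. Rescue was the highest of the 7 groups, NT2 came next, and cysteamine and knockdown overlapped. The first experiment gave 71.6 and 98.0 CPM for NT, 99.0 and 150.2 for cysteine starvation, and 136 and 87.9 for full amino acid starvation, from 1 to 6 counts per library, so its order there is within counting error. Summed over the 2 libraries, Ccdc80 had 12 counts under cysteine starvation, 4 under full amino acid starvation and 3 in NT.

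Postn had the lowest count of the 6 members summed over all 14 libraries. It stood at 51.5 and 43.6 CPM in NT2 (13 and 9 counts), 10.7 and 22.2 with cysteamine (2 and 5), 15.1 and 18.3 in knockdown (2 and 2), and 94.8 and 198 in rescue (10 and 16). Rescue was above every other library of the second experiment, and cysteamine and knockdown overlapped. Its levels in the first experiment were 71.6 and 196 CPM for NT (2 and 2 counts), 82.5 and 75.1 for cysteine starvation (5 and 3), and 476 and 396 for full amino acid starvation (7 and 9). Full amino acid starvation was the highest of the 7 groups for this gene.

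In CTNS knockdown against NT2, fibronectin, both thrombospondins, Timp3 and Ccdc80 fell. The transcriptome-wide edgeR quasi-likelihood test, with Benjamini-Hochberg adjustment over 1399 transcripts and a threshold of 0.05, called 5 of the 6 members lower, against 13.2% of all transcripts called lower. The log2 fold change was largest for Thbs1 at -2.43 (SE 0.23, adjusted p = 5.74e-06), a 5.39-fold fall. Thbs2, its close relative, fell by 1.90 (SE 0.29, adjusted p = 0.000234). Fn1 fell by 1.63 on the log2 scale (SE 0.35, adjusted p = 0.00301), a 3.09-fold difference. Timp3, the protease inhibitor, had a log2 fold change of -1.77 (SE 0.25, adjusted p = 0.000141). Ccdc80 had one of -1.37 (SE 0.34, adjusted p = 0.00672), and it lost the call without knockdown replicate 2, at -0.92 (adjusted p = 0.0820). Postn, on 4 counts against 22, had -1.47 (SE 0.63, adjusted p = 0.0862), and its count ratio of 0.345 has an exact 95% interval from 0.0863 to 1.01 that covers counting error only. The median over the 6 members was -1.70, against 0.09 over all transcripts. The summed level of the fibroblast markers was 18371 and 20623 CPM in NT2 and 6128 and 6282 in knockdown, and 5 of the 7 were called lower. Those called include Col1a2, Col3a1 and Col6a1, which also belong to the collagen list of the next paragraph. The single epithelial, muscle and pancreatic markers were called higher, Cdh1 by 2.39, Ttn by 1.60 and Ctrb1 by 4.38 on the log2 scale. The part of these marker shifts in the members' fall was not tested.

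Other matrix genes fell in the same comparison. Of 9 other matricellular and adhesive glycoproteins that were listed, 7 were called lower and none higher, among them the basement membrane linker Nid2 (-2.43, SE 0.21, adjusted p = 1.90e-06), the collagen-binding Sparc (-1.93, SE 0.36, adjusted p = 0.00112) and Nid1 (-1.21, SE 0.23, adjusted p = 0.00124). Of 7 receptors and adhesion components that meet fibronectin or thrombospondins, 5 were lower. They included Lrp1, an endocytic receptor of thrombospondins (-1.24, SE 0.20), Itgav, an integrin chain that binds fibronectin (-1.32, SE 0.22), and Vcl, vinculin of focal adhesions (-1.28, SE 0.23). Of 6 metalloproteinases and inhibitors, 3 were lower and none higher, among them the aggrecanase Adamts5 (-1.20, SE 0.21). Of 17 collagens and collagen enzymes, 12 were lower and 1 higher, among them the crosslinking enzyme Lox (-2.83, SE 0.21) and the collagen chain Col1a2 (-2.84, SE 0.35). Of 12 TGF-beta and YAP/SRF target genes, 4 were lower and none higher, with Acta2, smooth muscle actin, at -0.92 (SE 0.20). The adjusted p of each gene named here was 0.00294 or lower. The medians of these 5 lists were -1.15, -0.72, -0.27, -0.88 and -0.69.

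Thbs1, Ccdc80 and Postn were higher in rescue, where the CTNS plasmid was added to the hairpin, than in knockdown. In rescue against CTNS knockdown, 3 of the 6 members were called higher by edgeR's quasi-likelihood test, against 0.643% of all transcripts, 9 in number. Thbs1 had a log2 fold change of 1.69 (SE 0.27, adjusted p = 0.00806), Ccdc80 1.66 (SE 0.36, adjusted p = 0.0424) and Postn 3.01 (SE 0.58, adjusted p = 0.0316). The ratio of Postn counts, 26 against 4, was 8.45 with an exact 95% counting interval from 2.93 to 33.3. Timp3 had 0.85 (SE 0.26, adjusted p = 0.232), Fn1 0.44 (SE 0.34, adjusted p = 0.623) and Thbs2 0.40 (SE 0.38, adjusted p = 0.689). Both rescue libraries were above both knockdown libraries for every member but Thbs2. The share of all transcripts in that order was not computed. When only the 8 libraries of the second experiment were fitted, Fn1 (0.43, adjusted p = 0.00890) and Timp3 (0.85, adjusted p = 0.00683) were called as well. Over all 1399 transcripts that fit called 41 higher and 17 lower, in place of 9 and 0. The median over the members was 1.25, against 0.01 over all transcripts.

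The other 6 transcripts called higher in rescue were Rnf213 (2.07), Acta2 (1.23), Col6a1 (1.10), Csf1 (1.23), Col1a2 (1.63) and Col6a2 (1.35), of which 3 encode fibrillar or beaded-filament collagen chains. None of the 9 listed matricellular and adhesive glycoproteins and none of the 7 receptors was called. The calls of the members in this comparison were not stable to leaving out 1 library. Thbs1 missed the threshold without knockdown replicate 1 (1.55, adjusted p = 0.145), knockdown replicate 2 (1.82, adjusted p = 0.104) or rescue replicate 1 (1.37, adjusted p = 0.244). Postn missed it without knockdown replicate 1 (2.87, adjusted p = 0.261), knockdown replicate 2 (3.14, adjusted p = 0.319), rescue replicate 2 (2.44, adjusted p = 0.297) or NT2 replicate 2 (3.003, adjusted p = 0.0503). Ccdc80 passed in 5 of the 14 fits that each left out 1 library, those without an NT or full amino acid starvation library or knockdown replicate 1. In the other 9 its adjusted p was 0.0532 to 0.398, with values from 1.21 to 1.70, and without knockdown replicate 1 its value was 2.43. Postn is a tracking transcript, and the share of such transcripts was higher in rescue than in knockdown. The fibroblast markers also summed higher in rescue, to 12274 and 12691 CPM. The part of either in the members' rise was not tested.

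Rescue did not bring all members to the level of NT2. Against NT2, edgeR's quasi-likelihood test called 4 of the 6 members lower (12.9% of all transcripts) and 1 higher (18.7%). Thbs2 was the furthest below, at -1.501 (SE 0.29, adjusted p = 0.00112). Fn1 was at -1.19 (SE 0.35, adjusted p = 0.0156), Timp3 at -0.92 (SE 0.24, adjusted p = 0.00899) and Thbs1 at -0.74 (SE 0.20, adjusted p = 0.0104). Postn was above NT2 by 1.54 (SE 0.42, adjusted p = 0.0108), with a count ratio of 2.91 (exact 95% counting interval 1.59 to 5.39). Ccdc80 had 0.29 (SE 0.30, adjusted p = 0.505), so its level in rescue was not distinguishable from NT2 in this test. Thbs2 kept its call in all 14 fits that left out 1 library. Fn1 lost it without either NT2 library or either rescue library (-1.16 to -1.22, adjusted p 0.0719 to 0.102), and Thbs1 lost it without either NT2 library or rescue replicate 2 (-0.50 to -0.75, adjusted p 0.0533 to 0.1499). Timp3 lost its call without NT2 replicate 1 (-0.90, adjusted p = 0.0651) or rescue replicate 2 (-0.79, adjusted p = 0.103), and Postn without NT2 replicate 2 (1.44, adjusted p = 0.0549) or rescue replicate 2 (0.97, adjusted p = 0.220). The single markers Ttn (2.17) and Ctrb1 (4.88) were called higher in rescue than in NT2, and 2 of the 7 fibroblast markers, Col3a1 (-1.26) and Col1a2 (-1.21), were called lower. The part of these marker shifts in the members' values was not tested. Scaled by library totals in place of TMM, the transcripts called higher and lower numbered 199 and 259 in place of 261 and 180.

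Ccdc80 was lower with cysteamine, and the levels of the other 5 members were also below NT2 in both libraries. All 6 members had both cysteamine libraries below both NT2 libraries, as did 26.2% of all transcripts. At the threshold, edgeR's quasi-likelihood test over all 14 libraries called 1 member lower, against 5.0% of all transcripts: Ccdc80, at -1.42 (SE 0.31, adjusted p = 0.00807). Timp3 had -0.75 (SE 0.23, adjusted p = 0.0503), Fn1 -0.84 (SE 0.34, adjusted p = 0.128), Thbs2 -0.61 (SE 0.23, adjusted p = 0.0931), Postn -1.44 (SE 0.53, adjusted p = 0.0961) and Thbs1 -0.08 (SE 0.17, adjusted p = 0.781). Replicates lay closer together in the second experiment (Spearman correlation over transcripts 0.91 to 0.98) than in the first (0.56 to 0.83). Fitted on the second experiment alone, Fn1 (-0.87, adjusted p = 4.53e-06), Timp3 (-0.79, adjusted p = 0.000289) and Thbs2 (-0.66, adjusted p = 0.0117) were called too. That fit called more of all 1399 transcripts as well, 225 higher and 150 lower in place of 77 and 70. Ccdc80 lost its call without NT2 replicate 1 (adjusted p = 0.0590), NT2 replicate 2 (adjusted p = 0.0914), cysteamine replicate 1 (adjusted p = 0.142) or cysteamine replicate 2 (adjusted p = 0.0646), at log2 fold changes from -1.73 to -1.19. The fit over all libraries called Timp3 without any 1 library of the first experiment (adjusted p 0.0134 to 0.0396), Thbs2 without an NT or full amino acid starvation library (0.0433 to 0.0463), and Fn1 without an NT library (0.0262 and 0.0266), at fold changes close to those above. The fibroblast markers summed to 11976 and 12240 CPM with cysteamine, below NT2, and 3 of the 7 were called lower; their part in the members' levels was not tested. With library totals in place of TMM, the calls over all transcripts were 32 higher and 61 lower in place of 77 and 70.

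In the other lists, cysteamine gave calls in both directions. Among the 9 other matricellular and adhesive glycoproteins, Nid1 rose by 1.49 (SE 0.17) and Nid2 fell by 1.05 (SE 0.16). Of the 7 receptors, 2 were lower: Lrp1 (-1.02, SE 0.19) and Calr (-1.18, SE 0.25), calreticulin, a partner of LRP1 in thrombospondin binding. Of the 6 metalloproteinases and inhibitors, 2 rose and 2 fell, the latter being Adamts5 (-1.10, SE 0.19) and Adamts1 (-1.20, SE 0.21). Of the 17 collagens and collagen enzymes, 5 fell and none rose. Each adjusted p of these named genes was 0.00706 or lower.

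Thbs1 separated the 2 treatments of the second experiment. A direct comparison of CTNS knockdown with cysteamine, chosen after the values were seen, called 3 of the 6 members lower in knockdown, against 14.7% of all transcripts. The log2 fold change of Thbs1 was -2.35 (SE 0.24, adjusted p = 2.17e-05, edgeR's quasi-likelihood test), that of Thbs2 -1.29 (SE 0.30, adjusted p = 0.00869) and that of Timp3 -1.02 (SE 0.25, adjusted p = 0.0102). Fn1 had -0.79 (SE 0.34, adjusted p = 0.101), and it was called without NT replicate 1 (adjusted p = 0.0230) or NT replicate 2 (adjusted p = 0.0221). The second experiment fitted alone called Fn1 as well (-0.84, adjusted p = 6.44e-06), as did DESeq2 (-0.78, adjusted p = 0.00205) and the fit without tracking transcripts (-0.66, adjusted p = 0.00663). In that order these fits called 295 of 1399, 182 of 1399 and 220 of 1058 transcripts lower, in place of 205 of 1399. Postn (-0.03, SE 0.76) and Ccdc80 (0.06, SE 0.38) had differences near 0 with wide errors, and their count ratios had exact 95% counting intervals from 0.209 to 3.82 and from 0.622 to 1.72. Thbs1 passed in all 14 fits that left out 1 library. Thbs2 lost its call without either knockdown library or cysteamine replicate 2 (-1.26 to -1.32, adjusted p 0.0625 to 0.0669), and Timp3 without any 1 of the 4 libraries compared (-1.01 to -1.04, adjusted p 0.0723 to 0.0893). Of the markers, Cdh1 (2.04), Ttn (0.92) and Ctrb1 (2.21) were called higher in knockdown and 3 of the 7 fibroblast markers lower; the part of this in the members' differences was not tested.

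**Figure D2:**
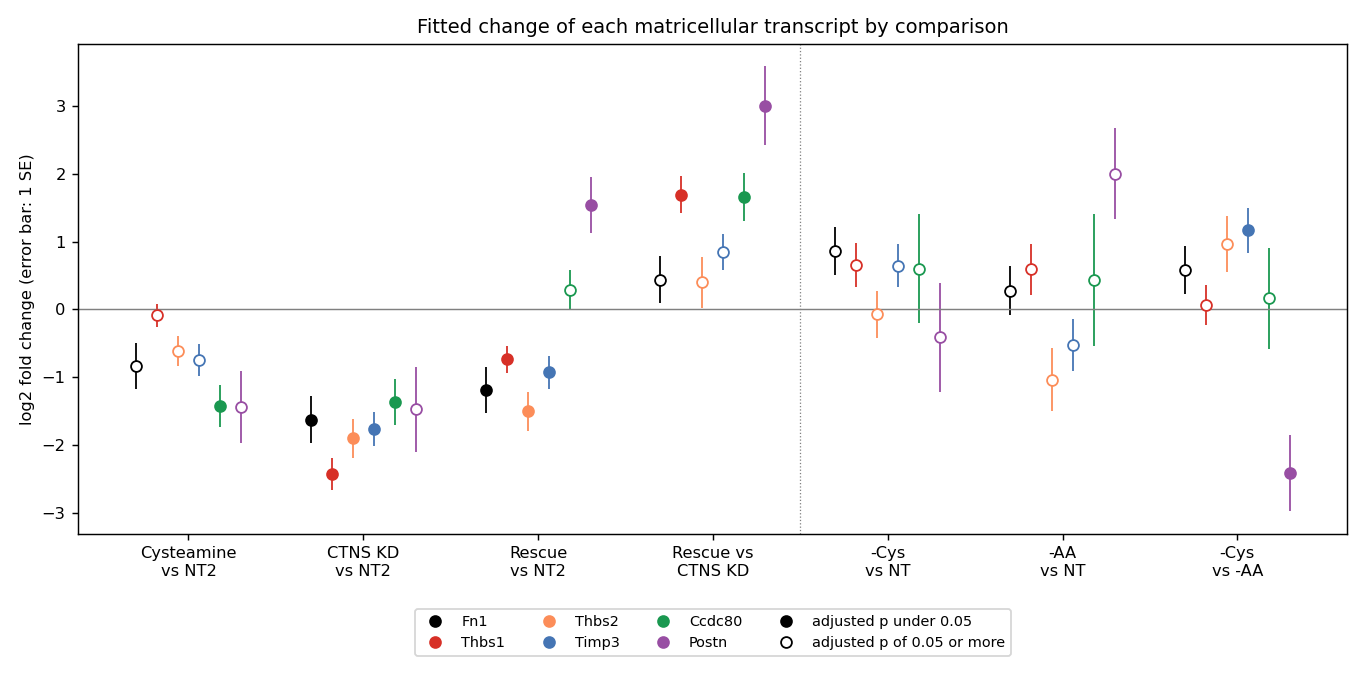
log2 fold change of each member in the 7 comparisons between groups, fitted by edgeR over all 14 libraries, with bars of 1 SE derived from the test statistic. Filled points have an adjusted p under 0.05. All 6 points lie below 0 in knockdown against NT2, from -2.43 to -1.37, and the points of rescue against knockdown run from 0.40 to 3.01.

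Within each library, the members can also be set against fibronectin, which removes the scaling between libraries. Thbs1 had 5.47 and 5.54 counts per 100 Fn1 counts in NT2, 9.03 and 9.49 with cysteamine, 2.88 and 3.44 in knockdown, and 9.01 and 5.85 in rescue. It therefore fell more than fibronectin did in knockdown and less with cysteamine. Timp3 had 14.8 per 100 in both NT2 libraries, 16.3 and 15.2 with cysteamine, and 13.6 and 13.2 in knockdown, so its proportion to fibronectin moved little where both fell, in knockdown. Elsewhere it varied more: Timp3 had 19.8 and 15.7 in rescue, and 5.0 and 10.9 in full amino acid starvation. Thbs2 had 4.99 and 4.03 in NT2 and 3.84 and 3.63 in knockdown, slightly below, and 4.65 and 2.45 in rescue. Ccdc80 had 1.81 and 2.11 in NT2, 3.20 and 1.34 in knockdown, and 5.41 and 5.47 in rescue, and Postn had 0.345 and 0.302 in NT2, 0.320 and 0.382 in knockdown, and 1.502 and 3.02 in rescue. Relative to fibronectin, both genes were thus higher in rescue than in NT2. Postn in the untreated group of the first experiment, NT, had 0.766 and 3.57 counts per 100 Fn1 counts, which overlaps rescue.

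**Figure D3:**
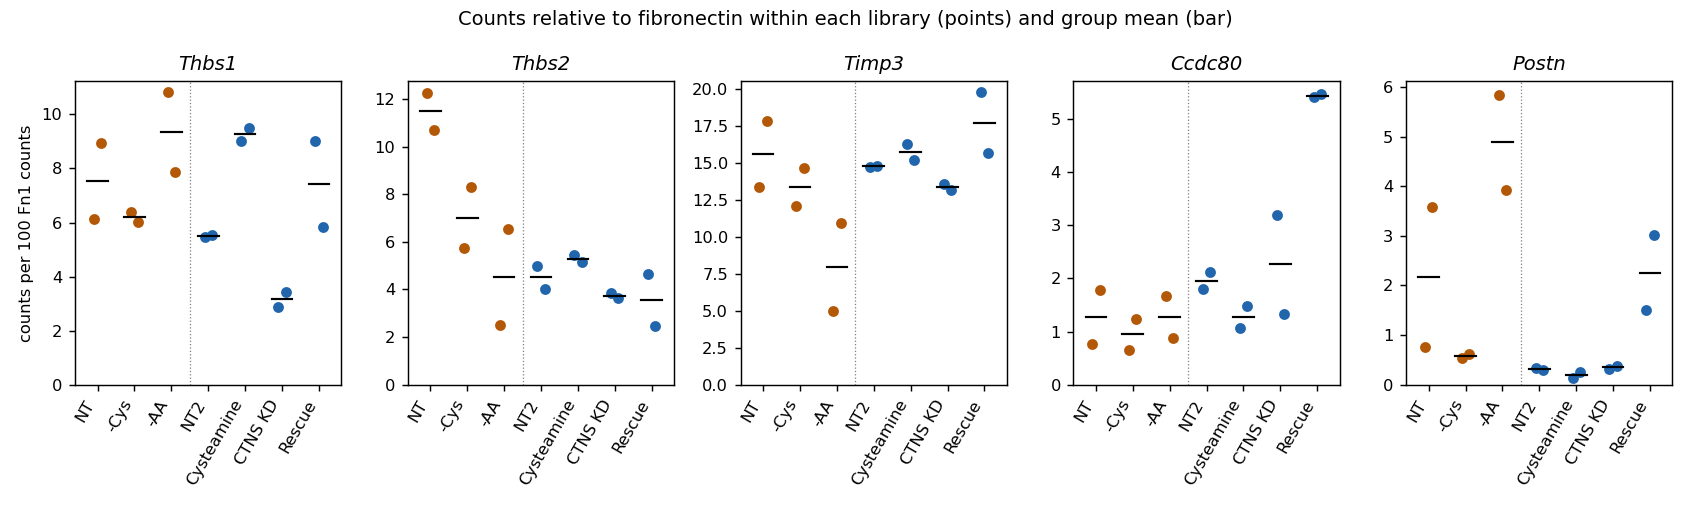
Counts of each other member per 100 counts of Fn1 in the same library (points, 1 per library; bars, group means; first experiment orange, second blue; a separate linear scale from 0 for each panel). Timp3 stays between 13.2 and 16.3 in NT2, cysteamine and knockdown, and Thbs1 spans 2.88 to 9.49 over the same groups. In rescue Timp3 reaches 19.8 and Ccdc80 5.47.

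Starvation gave no call for any member against NT. Neither cysteine starvation nor full amino acid starvation had a transcript past the threshold of edgeR's quasi-likelihood test (0 of 6 members and 0.0% of all transcripts in each comparison). Unadjusted p-values under 0.05 numbered 230 and 109 of 1399. DESeq2 called 12 higher and 55 lower for cysteine starvation and none for full amino acid starvation, and limma called 5 higher and none lower, and 9 higher and 5 lower. With library totals in place of TMM, edgeR called 29 higher and 2 lower for cysteine starvation and none for full amino acid starvation.

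With cysteine starvation, Fn1 had a log2 fold change of 0.86 (SE 0.35, adjusted p = 0.228). Thbs1 had 0.66 (SE 0.33, adjusted p = 0.330) and Timp3 0.65 (SE 0.32, adjusted p = 0.324). These genes and Ccdc80 had both libraries above both NT libraries. The share of all transcripts in that order was not computed. Fn1 passed in DESeq2 (0.78, adjusted p = 0.0197) and in edgeR without NT replicate 1 (1.32, adjusted p = 0.0268). Without NT replicate 2 its value was 0.55 and it was not called, so the value depends on which NT library is kept. Thbs2 (-0.07, SE 0.35), Postn (-0.41, SE 0.81) and Ccdc80 (0.60, SE 0.81) had errors larger than or near the size of the value. The ratio of Ccdc80 counts was 1.52, with an exact 95% counting interval from 0.409 to 8.38.

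With full amino acid starvation, Postn had the largest value of the 6, a log2 fold change of 2.00 (SE 0.67, adjusted p = 0.388) on 16 counts against 4, a ratio of 4.07 with an exact 95% counting interval from 1.31 to 16.7. Thbs2 had -1.04 (SE 0.47, adjusted p = 0.604), and Timp3 -0.52, Fn1 0.28, Ccdc80 0.44 and Thbs1 0.60, with adjusted p from 0.681 to 0.955. The lists around the members gave no calls in either comparison.

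Set against each other, the 2 starvations differed in Postn and Timp3. Postn was lower in cysteine starvation, with a log2 fold change of -2.41 (SE 0.56, adjusted p = 0.0109), 1 of 6 members called lower against 12.4% of all transcripts. Timp3 was higher by 1.17 (SE 0.33, adjusted p = 0.0294), 1 of 6 called higher against 2.57%. The ratio of Postn counts, 8 against 16, was 0.186 (exact 95% counting interval 0.0690 to 0.461). Thbs2 had 0.96 (SE 0.42, adjusted p = 0.138), Fn1 0.58 (SE 0.35, adjusted p = 0.308), Ccdc80 0.16 (SE 0.75) and Thbs1 0.06 (SE 0.29). Both calls were lost without cysteine starvation replicate 1 (Postn -2.50, adjusted p = 0.107; Timp3 1.13, adjusted p = 0.121) or full amino acid starvation replicate 1 (Postn -2.30, adjusted p = 0.0806; Timp3 0.72, adjusted p = 0.245). Without full amino acid starvation replicate 2, Thbs2 was called (2.18, adjusted p = 0.0487). Tracking transcripts and the single markers Cdh1, Ttn and Ctrb1 were lower in cysteine starvation as well. In NT and NT2 the mean CPM was 219 and 14.1 for Cdh1, 701 and 146 for Ttn, and 597 and 13.2 for Ctrb1. These markers are therefore not independent of the rule that defined the tracking transcripts. Without the tracking transcripts Timp3 had 0.84 (adjusted p = 0.166). Scaled by library totals, the median of all transcripts moved to 1.09 and the calls to 474 higher and 74 lower, in place of 36 and 174; relative to that median Postn was at -2.45 and Timp3 at 1.13.

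In the same comparison of starvations the lists gave few calls. Nid1 was higher in cysteine starvation (1.41, SE 0.39, adjusted p = 0.0247), as were Timp2, another metalloproteinase inhibitor (1.04, SE 0.34, adjusted p = 0.0494), the basement membrane collagen Col4a1 (0.996, SE 0.31, adjusted p = 0.0382), and the actin-associated Acta2 (1.33, SE 0.40, adjusted p = 0.0371) and Tagln (1.66, SE 0.54, adjusted p = 0.0489). P4ha1, a collagen prolyl hydroxylase subunit, was lower (-1.92, SE 0.38, adjusted p = 0.00473).

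The treatments of the second experiment were set against cysteine starvation by testing the difference between effects, each taken against its own untreated group. For CTNS knockdown minus cysteine starvation, edgeR's quasi-likelihood test called 4 of the 6 members lower, against 7.15% of all transcripts: Thbs1 (-3.09, SE 0.40, adjusted p = 0.000219), Fn1 (-2.49, SE 0.50, adjusted p = 0.00272), Timp3 (-2.42, SE 0.40, adjusted p = 0.000885) and Thbs2 (-1.83, SE 0.45, adjusted p = 0.00999). These 4 passed in all 14 fits that left out 1 library, and Ccdc80 (-1.97, adjusted p = 0.116) passed without knockdown replicate 1 (-2.74, adjusted p = 0.0361). Limma did not call Thbs2 (-1.97, adjusted p = 0.0615), and library totals in place of TMM called Ccdc80 (-2.81, adjusted p = 0.0168). For cysteamine minus cysteine starvation, 2 of the 6 were called lower, against 2.36% of all transcripts: Fn1 (-1.70, SE 0.49, adjusted p = 0.0487) and Timp3 (-1.39, SE 0.39, adjusted p = 0.0432). Fn1 passed in 4 of the 14 fits that left out 1 library and Timp3 in 3. Both passed without NT replicate 1 or either full amino acid starvation library, and Fn1 also without cysteine starvation replicate 2. In the other fits the adjusted p was 0.0825 to 0.170 for Fn1 and 0.0525 to 0.146 for Timp3. The 2 experiments differ in control, depth and makeup, and these differences cannot be told apart from those of the treatments. By library totals, calls over all transcripts were 140 higher and 311 lower in place of 168 and 100 for the first difference, and 31 and 147 in place of 62 and 33 for the second.

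The members followed one another to different degrees over the 8 libraries of the second experiment, which share 4 treatments and so are not independent points. The Pearson correlation of log2 CPM was 0.96 between Fn1 and Timp3, 0.92 between Fn1 and Thbs2 and 0.91 between Thbs1 and Timp3. Postn correlated with Ccdc80 at 0.84 and with Fn1 at 0.11. Of all transcripts with a mean count of at least 20, the one most like Fn1 over these libraries was Nid2 (0.99), and that most like Timp3 was Col3a1 (0.98). Tpm1 (0.98) was among the 3 most like Thbs2. Thbs1 was closest to Pelp1 (0.97), Ccdc80 to Stk39 (0.95) and Postn to Rnf213 (0.94). Over all 14 libraries the closest were Slc18a2 for Fn1 (0.95), Col4a5 for Timp3 (0.95), Lox for Thbs1 (0.87), Samhd1 for Postn (0.88) and Rnf213 for Ccdc80 (0.81). Rnf213, itself called higher in rescue, was among the 3 closest to Ccdc80 in both sets of libraries.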

How the data were processed

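The deposited tables hold whole-number counts per Ensembl transcript, made by the authors and named as CPM. Poly(A) RNA was isolated, size-selected on a gel, tailed, ligated, copied and amplified, per the labels' protocols. The tools in the submitters' processing notes are STAR 2.7.10a, Bowtie 1.2.3, cutadapt 2.8 and bcl2fastq 2.20.0.422, with GRCm39 as the build. How reads were counted, and with what strand setting and annotation, is not given in the sources used here. Symbols came from GENCODE mouse release M21, found for 1385 of 1399 transcripts; the 14 others entered the fit unnamed. edgeR 4.0.16 (R 4.3.3) fitted 7 group means to all 14 libraries with TMM scaling, leaving 7 residual degrees of freedom. Two-sided quasi-likelihood p-values were adjusted over all transcripts (Benjamini-Hochberg, threshold 0.05), and an adjusted p with no tool beside it comes from this fit. Each SE of this fit was derived from its test. It is the size of the log2 fold change divided by the square root of the quasi-likelihood F statistic. There were 7 comparisons, 2 differences of effects and 1 comparison added after the values were seen. Log2 CPM used a prior count of 2. Alternatives were DESeq2 1.42.0, limma 3.58.1, library totals, a mean count of at least 20, each experiment alone, no tracking transcripts (count ratio of NT to NT2 above 2 times its median), a replicate block, the other untreated group as control, and each library left out. The tracking set also holds the 3 transcripts with the highest summed counts. Where a library was left out, its partner was assumed to vary like the other groups. The fit was tested on simulated data.

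The text names the 6 members, up to 3 transcripts of each list with the smallest p where a list had a call, and the transcripts most like each member. Some transcripts that this rule names are not reported here. The other transcripts called in rescue were named after their values were seen. Members and lists were chosen with earlier results of these data known. Counting intervals are exact at 95% and cover counting error only; the labels mention no molecular identifiers.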

Additional observations from a re-analysis of the deposited data

Results flagged for a closer look

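The effect of a treatment against its own untreated group differed between the experiments for 4 members, by a test of the difference itself. For CTNS knockdown minus cysteine starvation the differences on the log2 scale were -3.09 for Thbs1, -2.49 for Fn1, -2.42 for Timp3 and -1.83 for Thbs2. Of all transcripts, 7.15% were called lower there. For cysteamine minus cysteine starvation the differences were -1.70 for Fn1 and -1.39 for Timp3, where 2.36% of all transcripts were called lower. These calls were not stable. Limma called neither gene (adjusted p = 0.0665 and 0.142), and both calls were lost in most fits that left out 1 library. The 2 effects that enter each difference come from experiments with separate untreated groups, and NT and NT2 themselves differ in depth and makeup, which cannot be told apart from the treatments.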

How the results depend on the processing

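Of 1252 recomputed values of single members, 331 of those under other settings and 746 of those with 1 library left out kept their direction and their side of the threshold. The 5 calls of knockdown against NT2 were unchanged in number under DESeq2, library totals, a mean count of at least 20, the second experiment alone, no tracking transcripts and the replicate block. Limma called 4. Over all transcripts tested, the former fits called 155 to 292 lower and limma 35, in place of 185. Depth limits Postn and Ccdc80 in the first experiment, where single libraries held 1 to 9 counts, and totals of listed transcripts are not sequencing depths.

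The number of members called changed elsewhere. Where 2 numbers stand in brackets, they are the transcripts that the same fit called higher and lower, of 1399 unless stated. DESeq2 called 1 for cysteine starvation against NT (12 and 55) and 3 for cysteamine against NT2 (98 and 67). Limma called 0 for cysteamine against NT2 (0 and 0), 0 for rescue against knockdown (1 and 0) and 1 for rescue against NT2 (123 and 22). It called 1 for knockdown against cysteamine (0 and 4) and 0 for cysteamine minus cysteine starvation (9 and 2). Library totals gave 4 for cysteine against full amino acid starvation (474 and 74) and 1 for rescue against knockdown (2 and 0). They gave 4 for cysteamine minus cysteine starvation (31 and 147). For knockdown minus cysteine starvation they gave 5 (140 and 311), where limma gave 3 (147 and 72). A mean count of at least 20 gave 1 for the 2 starvations against each other (13 and 104 of 897) and 2 for cysteamine (69 and 81 of 897). Each experiment fitted alone gave 1 for the starvations against each other (1 and 86), 4 for cysteamine (225 and 150) and 5 for rescue against knockdown (41 and 17). Knockdown against cysteamine had 4 in the second experiment alone (234 and 295), with DESeq2 (106 and 182) and without tracking transcripts (167 and 220 of 1058). It had 2 with library totals (124 and 121). Leaving out tracking transcripts gave 0 for the starvations against each other (4 and 14 of 1058) and 4 for cysteamine (168 and 159 of 1058). With NT and NT2 exchanged as controls, the calls were 1 for cysteine starvation (168 and 80) and 2 for full amino acid starvation (290 and 169). They were 2 for cysteamine (150 and 206), 2 for knockdown (62 and 141) and 2 for rescue (55 and 100). With each library left out in turn, the calls ran from 0 to 1 (cysteine starvation against NT), 0 to 3 (the starvations against each other), 0 to 4 (cysteamine), 0 to 3 (rescue against knockdown), 1 to 5 (rescue against NT2), 1 to 4 (knockdown against cysteamine) and 0 to 2 (cysteamine minus cysteine starvation). The cause was not tested, except that fewer libraries or transcripts enter some of these fits. Postn did not enter the fits without tracking transcripts or with a mean count of at least 20, so it could not be called there.

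Signs changed only for values that were not called, apart from Ccdc80 with exchanged controls. With exchanged controls, cysteine starvation gave -0.10 for Fn1, 0.48 for Thbs2, 0.72 for Postn, -1.25 for Ccdc80 and -0.26 for Timp3, and full amino acid starvation -0.68 for Fn1 and -1.41 for Ccdc80. Cysteamine then gave 0.12 for Fn1, 0.47 for Thbs1, 0.42 for Ccdc80 and 0.16 for Timp3, and knockdown 0.48 for Ccdc80. Thbs2 in cysteine starvation against NT was 0.18 with limma, 0.60 with library totals, 0.025 in the first experiment alone and -0.30 to 0.66 with a library left out. Library totals gave 0.27 for Postn in cysteine starvation, -0.14 for Fn1 in full amino acid starvation and -0.043 for Ccdc80 in rescue against NT2. With them the median of all transcripts lay furthest from 0 for the starvations against each other, at 1.09, where TMM gave 0.05. For the starvations against each other, a mean count of at least 20 gave -0.19 for Thbs1 and -0.082 for Ccdc80, and no tracking transcripts -0.24 and -0.15. For knockdown against cysteamine, limma gave 0.027 for Postn and -0.045 for Ccdc80, and the replicate block 0.012 for Postn. Leaving out a library moved Postn from -1.29 to 0.15 (cysteine starvation), Fn1 from -0.031 to 0.74 (full amino acid starvation), Thbs1 from -0.19 to 0.23 and Ccdc80 from -0.18 to 0.48 (the starvations against each other), Thbs2 from -0.13 to 0.72 (rescue against knockdown), and Postn from -0.40 to 0.57 and Ccdc80 from -0.72 to 0.50 (knockdown against cysteamine).

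The groups share replicate numbers, but with 2 pairs per comparison the numbers do not establish pairs: deviations of same-numbered libraries correlated at -0.21 to 0.29 (first experiment) and 0.09 to 0.28 (second). The replicate block called 3 members for cysteamine against NT2, adding Thbs2 (-0.60, adjusted p = 0.0374) and Timp3 (-0.75, adjusted p = 0.0268), and changed the number of members called in no other comparison. Over all transcripts it called 13 higher and 67 lower for cysteine starvation against NT, in place of 0, and 163 higher and 106 lower for cysteamine against NT2, in place of 77 and 70.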
